A study of Homo sapiens with 8 samples.

Results

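The genes of autophagy and mitophagy were followed in an Ewing sarcoma cell line under low oxygen and after repression of an enhancer at LOXHD1. The set held 40 genes of the 60332 rows of the expression table, and was made of every row whose gene symbol belonged to a list of autophagy and mitophagy genes. All 40 symbols had a row, and all 40 are protein-coding in the GENCODE annotation. The rule itself used names and no measured value.

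Autophagy is the route by which a cell encloses part of its own content in a double membrane and delivers it to the lysosome. The ULK1 kinase complex starts the process, a class III PI3-kinase complex built on Beclin 1 (BECN1) marks the membrane with lipid, ATG2 and ATG9 proteins bring lipid to it, and the ATG conjugation enzymes attach ATG8 proteins (the LC3 and GABARAP families) on which cargo adaptors such as p62 (SQSTM1) dock. Mitophagy is the same route applied to mitochondria, either through receptors on the outer mitochondrial membrane such as BNIP3, BNIP3L (also called NIX) and FUNDC1, or through the kinase PINK1. BNIP3 and BNIP3L are long-known targets of the hypoxia-inducible factors.

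RNA was sequenced from SK-N-MC, an established Ewing sarcoma line, carrying a dCas9-KRAB repressor (a Cas9 that cannot cut DNA, joined to a domain that silences chromatin) delivered by lentivirus. The 8 libraries fell into 4 groups of 2: cells with an empty guide vector in normoxia, the same empty-vector cells in hypoxia, and cells with either of 2 independent guides next to a GGAA-repeat enhancer of LOXHD1, eKD1 and eKD2, both in hypoxia. Hypoxia was 1% oxygen for 16 h, and the cells were puromycin-selected polyclonal pools and not clones. The study called the libraries of a group biological duplicates. No guide library in normoxia was analysed here, and the hypoxia, eKD1 and eKD2 comparisons all use the same 2 control hypoxia libraries.

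LOXHD1, the targeted gene, stood at 156 and 169 FPKM (a read density corrected for transcript length and sequencing depth) in control normoxia, 93.0 and 91.1 in control hypoxia, 17.3 and 15.0 in eKD1 and 11.7 and 11.8 in eKD2, so both guides lowered it relative to control hypoxia, by 2.44 ± 0.10 (SE) and 2.87 ± 0.07 on the log2 scale (limma, adjusted p = 0.0371 and 0.00617). The 6 Ewing sarcoma markers were each between 26.9 and 860 FPKM in all libraries. From control normoxia to control hypoxia 4 of the 6 were called lower and 1 higher by limma. NR0B1 went from 64.5 and 55.6 FPKM to 32.5 and 32.0, and CD99 from 306 and 325 to 417 and 406. Of the 4 markers of other lineages, PECAM1 had no row under that symbol, and the other 3 were not at 0. Their summed level was 62.6 and 61.3 FPKM in control normoxia, 67.9 and 58.4 in control hypoxia, 89.8 and 74.2 in eKD1 and 77.7 and 75.6 in eKD2, and their part in the results below was not tested. Within that list PTPRC fell from 22.5 and 23.8 FPKM in control normoxia to 4.87 and 5.39 in control hypoxia, COL1A1 rose from 34.2 and 34.1 to 57.5 and 49.4 (0.63 ± 0.10 on the log2 scale, adjusted p = 0.0219), and EPCAM, at 5.80 and 3.39 against 5.47 and 3.61, was not called. The FPKM of a library summed to between 865107 and 1041457, relative depth was between 55.7% and 100% of that of the deepest library, and duplicates correlated at Pearson's r from 0.954 to 0.963 over genes. In bulk RNA, fewer cells expressing a gene and less RNA per cell cannot be told apart.

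Levels of the 40 genes spanned a wide range. In control normoxia 4 genes were at 100 FPKM or more, 26 were from 10 to 100, 8 were from 1 to 10 and 2 were under 1. PHB2, an inner-membrane prohibitin that also acts as a mitophagy receptor, stood first at 397 ± 8.41 FPKM (SD, n = 2), followed by GABARAP at 169 ± 9.66, BNIP3L at 123 ± 10.6 and the LC3 protease ATG4B at 106 ± 3.73. The duplicates of these 4 genes did not overlap with one another. MAP1LC3A, an LC3 isoform, was listed at 0 in 7 of 8 libraries, and WIPI1, a lipid-binding phagophore protein, was between 0 and 0.707 FPKM. These 2 fell under the filter (at least 1 FPKM in at least 2 of 8 libraries), so 38 of the 40 genes were tested, among 15372 genes. Over the 152 pairs of duplicates of those 38 genes the median fold between duplicates was 1.09, and 7 pairs differed by more than 1.5-fold, ULK2 in control normoxia most, at 2.16-fold. Reads from overlapping genes on the other strand could not be told apart for 20.8% of the annotated exon sequence of ATG14, 18.1% of ATG7, 14.7% of ATG4D and 6.87% of ATG10, the last with RPS23 at a mean of 2194 FPKM.

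The summed FPKM of the 40 genes was 1784 and 1779 in control normoxia, 2348 and 2256 in control hypoxia, 2476 and 2372 in eKD1 and 2592 and 2611 in eKD2. Most of the gain from control normoxia to control hypoxia came with 2 genes. BNIP3 and BNIP3L together made up 7.94% and 7.14% of the sum in control normoxia, 27.4% and 28.0% in control hypoxia, 27.8% and 27.2% in eKD1 and 32.1% and 31.0% in eKD2. Without them the remaining 38 genes summed to 1642 and 1652 FPKM in control normoxia and to 1705 and 1626 in control hypoxia. These ranges overlap. The same 38 genes summed to 1788 and 1728 FPKM in eKD1 and 1759 and 1802 in eKD2, each above both control hypoxia libraries. The plot of summed levels shows both parts. The FPKM of all genes also summed to less in control normoxia (865107 and 877580) than in control hypoxia (1041457 and 1018475). As a share of that total, the 40 genes made up 0.206% and 0.203% in control normoxia and 0.225% and 0.222% in control hypoxia. The share was 0.248% and 0.246% in eKD1 and 0.272% in both eKD2 libraries.

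**Figure D1:**
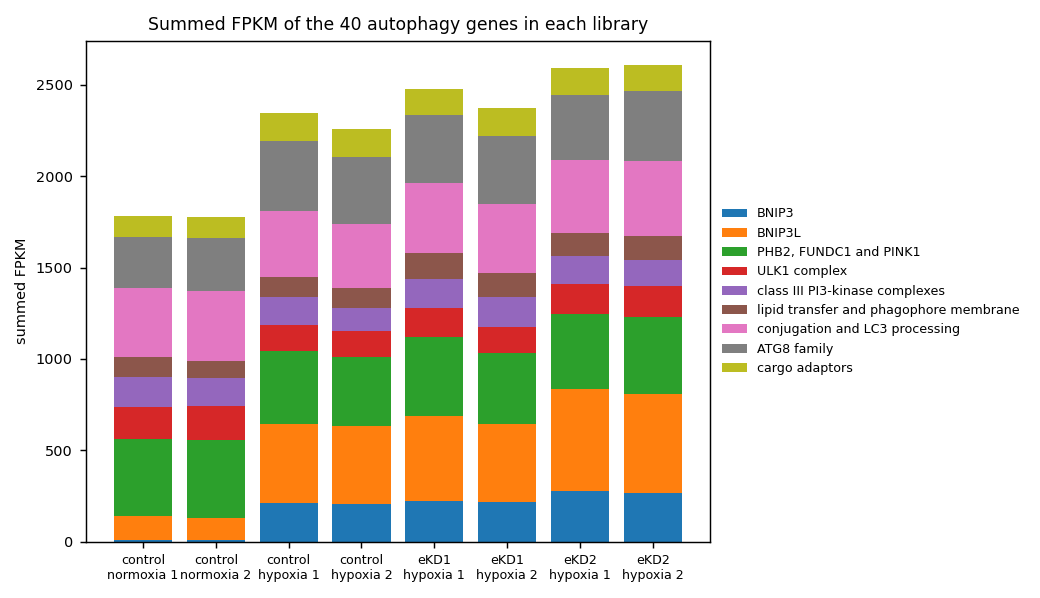
Summed FPKM (y axis, from 0) of the 40 autophagy and mitophagy genes in each of the 8 libraries (x axis), stacked by role with BNIP3 and BNIP3L drawn apart. The BNIP3 and BNIP3L segments together grow from 142 and 127 FPKM in control normoxia to 643 and 631 in control hypoxia and 833 and 809 in eKD2. The other segments together run from 1626 to 1802 FPKM over the 8 libraries.

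Hypoxia was compared first, as control hypoxia against control normoxia. Of the 38 genes tested, 7 rose and 4 fell (limma on log2(FPKM + 1), adjusted p under 0.05 over all genes tested). Over all genes tested 16.2% were called higher and 16% lower (32.2% in either direction), beside 18.4% and 10.5% of the autophagy genes, so these counts lie near what the table as a whole shows. The median log2 change was 0.10 over the autophagy genes and 0.01 over all genes tested. The risers were BNIP3, BNIP3L, PINK1, MAP1LC3B, SQSTM1, GABARAP and ATG4C, and the genes that fell were PIK3R4, ATG16L1, ATG3 and BECN1. Both hypoxia libraries were above both normoxia libraries for 13 genes and below them for 13, against 35.9% above and 34.5% below over all genes, and the groups overlapped for 12. When each library was scaled to the same FPKM total, the median of all genes moved from 0.01 to -0.19 and the split became 6 higher and 11 lower, so directions of small changes depend on that choice.

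BNIP3 (GRCh37 chr10:133781188-133795471, minus strand), which recruits LC3 to mitochondria, was at 10.8 and 11.2 FPKM in control normoxia and at 214 and 208 in control hypoxia. The mean in hypoxia was 19.1 times that in normoxia, and the log2 change was 4.14 ± 0.06 (SE, adjusted p = 0.0014). It was the member with the largest change in this comparison. BNIP3L, its close relative, went from 131 and 116 FPKM to 429 and 423, a log2 change of 1.78 ± 0.07 (adjusted p = 0.00653). BNIP3 therefore stood at 8.27% and 9.71% of the BNIP3L level in normoxia and at 49.9% and 49.0% in hypoxia, and the FPKM scale corrects for transcript length. About 7.95% of the annotated BNIP3L exon sequence also lies in exons of PNMA2 on the other strand, and the reads carry no strand.

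The promoter of BNIP3 is shown because its change was the largest, beside those of MAP1LC3B and GABARAP, which rose less, and PIK3R4, which fell most. Each run is the 250 bases before the annotated start (RefSeq, GRCh38.p14), read 5′ to 3′ on the gene's strand. Capitals mark ACGTG or GCGTG on either strand, the core letters of a hypoxia response element.
BNIP3, chr10:131981924-131982173, minus strand: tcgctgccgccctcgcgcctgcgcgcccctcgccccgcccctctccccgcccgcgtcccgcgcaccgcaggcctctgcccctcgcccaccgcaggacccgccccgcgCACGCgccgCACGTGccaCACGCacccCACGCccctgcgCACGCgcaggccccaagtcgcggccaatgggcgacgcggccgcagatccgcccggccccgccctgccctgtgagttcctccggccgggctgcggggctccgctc
MAP1LC3B, chr16:87392086-87392335, plus strand: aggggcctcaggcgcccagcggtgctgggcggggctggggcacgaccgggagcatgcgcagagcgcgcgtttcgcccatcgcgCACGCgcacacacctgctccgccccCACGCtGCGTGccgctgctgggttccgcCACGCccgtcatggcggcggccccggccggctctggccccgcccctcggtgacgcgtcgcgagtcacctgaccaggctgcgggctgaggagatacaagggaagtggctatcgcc
GABARAP, chr17:7242450-7242699, minus strand: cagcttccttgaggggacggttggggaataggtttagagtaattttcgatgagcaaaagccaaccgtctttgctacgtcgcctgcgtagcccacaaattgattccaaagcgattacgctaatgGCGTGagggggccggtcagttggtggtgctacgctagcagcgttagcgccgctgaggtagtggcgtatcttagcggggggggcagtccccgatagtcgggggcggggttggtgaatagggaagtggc
PIK3R4, chr3:130746830-130747079, minus strand: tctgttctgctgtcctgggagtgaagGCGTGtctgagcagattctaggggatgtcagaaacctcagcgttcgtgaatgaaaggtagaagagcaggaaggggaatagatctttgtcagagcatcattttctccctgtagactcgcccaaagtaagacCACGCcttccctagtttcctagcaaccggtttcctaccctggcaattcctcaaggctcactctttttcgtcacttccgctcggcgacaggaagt

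The BNIP3 run held 6 matches, at 143, 134, 133, 125, 116 and 104 bases before the start, of which the pair at 134 and 133 overlap as the palindrome CACGTG. MAP1LC3B held 4, GABARAP 1 and PIK3R4 2. The other genes that fell are not shown: ATG3 held 5, more than MAP1LC3B, and ATG16L1 and BECN1 held 0. The risers ATG4C and SQSTM1, whose promoters are not shown, held 0, SQSTM1 at each of its listed starts. Of 35116 human promoters of the same length, 43.2% held at least 1 match, 3.22% at least 4 and 0.646% at least 6. Entries were found for 34 of the 40 genes, 8 of them with more than 1 start and 43 starts in all, and 24 of those 43 (55.8%) held at least 1 match. Among starts of genes that rose in hypoxia 3 of 7 held one, among those that fell 2 of 4, and among the uncalled 19 of 31. The E-box CACGTG was in 3 of the 43 starts, against 6.34% of all promoters. The amino-acid response core TGATGNAA was in 0 of 43 against 3.14%. BNIP3L, PINK1, ATG4D, MAP1LC3A, RB1CC1 and UVRAG had no entry. A match is a description of letters and not a measured binding site.

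Among the other mitophagy receptors and sensors, PINK1, the kinase that labels damaged mitochondria, was at 6.75 and 7.53 FPKM in normoxia and 16.2 and 13.0 in hypoxia, a log2 change of 0.93 ± 0.16 (adjusted p = 0.0245). The hypoxia libraries were both higher and did not overlap with normoxia. PINK1 shares 39.5% of its annotated exon sequence with the antisense transcript PINK1-AS, whose mean was 2.06 FPKM, and these reads cannot be assigned to a strand. FUNDC1, a receptor on the outer membrane that is best known as regulated through phosphorylation, was at 23.1 and 17.6 FPKM in normoxia and 21.9 and 18.6 in hypoxia. Its groups overlapped, and the log2 difference was 0.00 with a 95% interval from -0.49 to 0.50. PHB2 was at 391 and 403 FPKM against 362 and 347, and its difference of -0.16 did not pass (adjusted p = 0.0663).

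None of the 5 ULK1 complex genes was called by limma, and 2 had an unadjusted p under 0.05, against 45.9% of all genes tested. The fit shared by all groups called ATG13 and ATG101 lower. In hypoxia that fit called 5824 of all 15372 genes tested, beside 4946 in the pairwise fit. ULK1 itself was at 45.4 and 37.3 FPKM in normoxia and 38.5 and 43.5 in hypoxia, overlapping, with a difference of -0.01 (95% interval -0.39 to 0.37). ATG13 (68.5 and 85.2 against 55.0 and 53.3 FPKM) and ATG101 (25.8 and 31.5 against 16.7 and 19.8), the partner pair that holds the complex together, were lower in both hypoxia libraries without passing the adjusted test (adjusted p = 0.0562 and 0.0516). ULK2 overlapped between the groups. The scaffold RB1CC1 was lower in both hypoxia libraries, at 26.5 and 18.1 FPKM against 27.8 and 29.5, without passing (adjusted p = 0.243).

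In the class III PI3-kinase complexes 2 of 6 genes fell. PIK3R4, the regulatory subunit also called VPS15, went from 30.2 and 23.7 FPKM to 14.8 and 12.6, a log2 change of -0.92 ± 0.17 (adjusted p = 0.0282). BECN1 went from 59.0 and 62.8 FPKM to 49.4 and 48.9, a smaller change of -0.30 ± 0.07 (adjusted p = 0.0407). Hypoxia libraries were lower without overlap for both. The catalytic subunit PIK3C3 did not follow PIK3R4: it was at 41.2 and 36.9 FPKM in normoxia and 58.0 and 37.5 in hypoxia, and its duplicates under hypoxia differed by 1.55-fold. AMBRA1, ATG14 and UVRAG, the complex's partners, were not called.

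No lipid transfer or phagophore gene was called by limma, and the paralogues ATG2A and ATG2B stood on opposite sides. ATG2A was at 5.73 and 5.97 FPKM in normoxia and 8.11 and 8.81 in hypoxia (log2 difference 0.46, adjusted p = 0.0611), and ATG2B was at 17.8 and 14.2 against 8.99 and 10.6 (-0.65, adjusted p = 0.0568). Neither gene's groups overlapped. ATG9A, the scramblase of the seed vesicles, was higher in both hypoxia libraries by 0.37 without passing (adjusted p = 0.274), and WIPI2, which binds PI3-phosphate, overlapped. Of these genes 2 had an unadjusted p under 0.05, against 45.9% of all genes tested. The fit shared by all groups called ATG2A higher and ATG2B lower.

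Of the 10 conjugation and LC3-processing genes, 1 rose and 2 fell. The protease ATG4C went from 16.0 and 15.6 FPKM to 21.5 and 22.9 (0.46 ± 0.09, adjusted p = 0.0323). ATG16L1, which places the conjugation machinery on the membrane, went from 33.1 and 40.04 FPKM to 22.5 and 22.8 (-0.66 ± 0.12, adjusted p = 0.0284). ATG3, the enzyme that hands ATG8 proteins to lipid, went from 60.3 and 67.7 FPKM to 50.0 and 47.0 (-0.39 ± 0.09, adjusted p = 0.0438). The groups of all 3 genes did not overlap. With equal FPKM totals the ATG4C change was 0.23 and was no longer called, whereas ATG16L1 moved to -0.89 and ATG3 to -0.63, and both stayed called. The paralogues ATG4A and ATG4B, the E1 enzyme ATG7, and ATG10 and ATG12 were not called. ATG5 and ATG4D were lower in both hypoxia libraries without passing (adjusted p = 0.0773 and 0.0793). The fit shared by all groups and equal FPKM totals called both lower.

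Of the ATG8 family, 2 of the 4 tested genes rose. MAP1LC3B, which encodes the LC3B read out in most autophagy assays, went from 7.59 and 7.71 FPKM to 12.5 and 13.6 (0.70 ± 0.11, adjusted p = 0.0225). GABARAP went from 162 and 176 FPKM to 235 and 237 (0.48 ± 0.06, adjusted p = 0.0141). Hypoxia was higher in both libraries for each. GABARAPL1 was at 61.4 and 66.2 FPKM against 75.6 and 70.4, a difference of 0.19 that did not pass (adjusted p = 0.136), and GABARAPL2 overlapped.

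SQSTM1 (GRCh37 chr5:179233398-179265078, plus strand), the adaptor p62, was the cargo adaptor that rose, from 48.5 and 54.1 FPKM to 84.8 and 76.4 (0.64 ± 0.10, adjusted p = 0.0191). About 21.0% of its annotated exon sequence is shared with MRNIP on the other strand, at a mean of 40.8 FPKM. NBR1 (16.7 and 18.9 against 23.6 and 24.96 FPKM) and OPTN, the optineurin adaptor (5.71 and 5.04 against 8.50 and 13.3), were higher in both hypoxia libraries without passing (adjusted p = 0.0502 and 0.0689), and TAX1BP1 overlapped. The fit shared by all groups and the fit of protein-coding genes alone called NBR1 and OPTN higher. The latter fit called 5215 of the 12248 genes it tested.

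**Figure D2:**
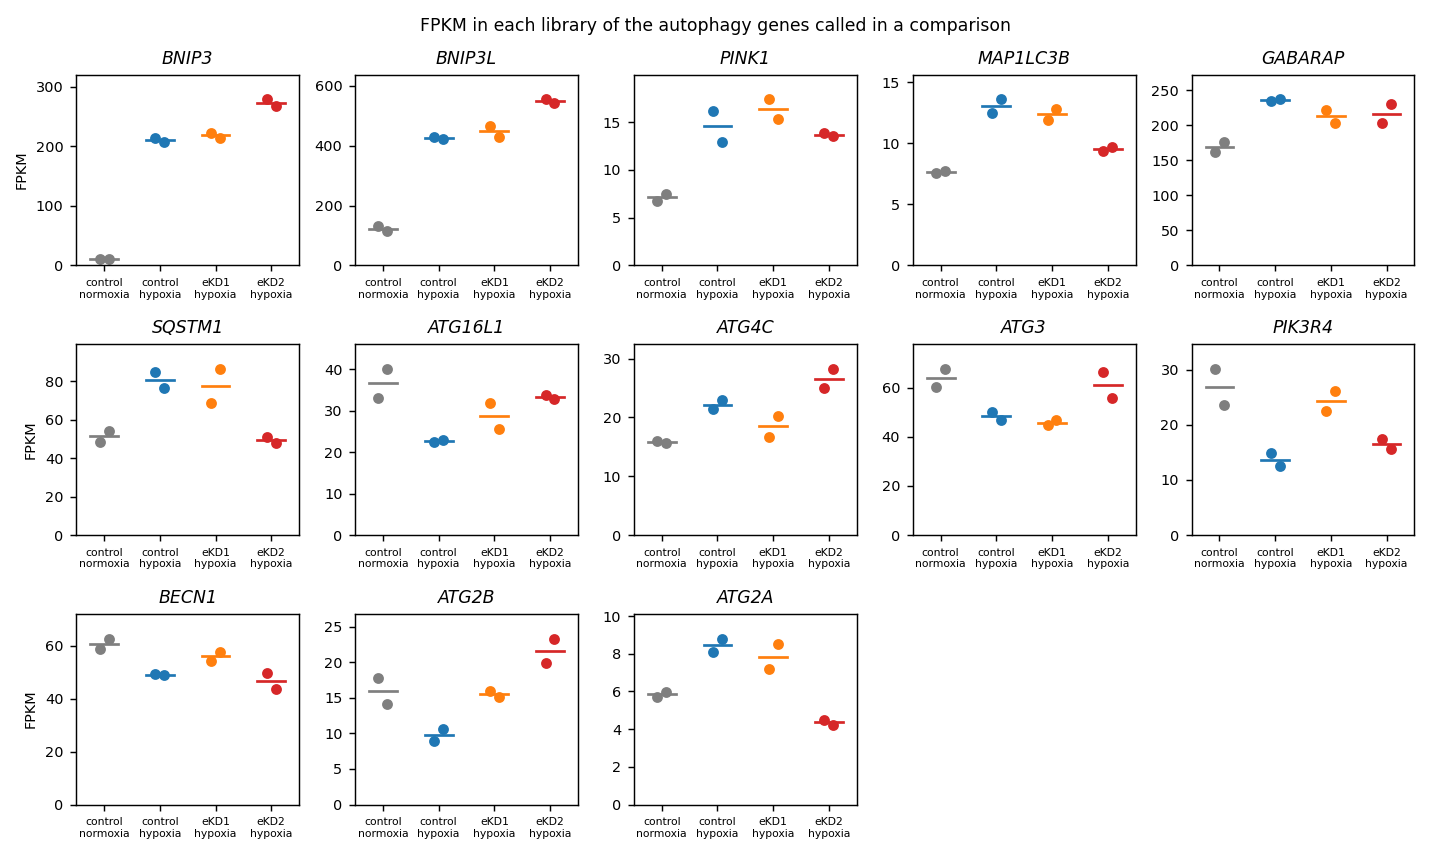
FPKM (y axis, from 0 in each panel) in each of the 8 libraries for the 13 genes called in at least 1 comparison. Points are libraries, horizontal lines are group means, and the 4 groups of 2 libraries run along the x axis. BNIP3 rises from 10.8 and 11.2 FPKM in normoxia to between 208 and 279 in the hypoxia libraries, and SQSTM1, MAP1LC3B and ATG2A are lower in the eKD2 libraries than in both control hypoxia libraries.

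Leaving out any 1 of the 4 libraries (either control normoxia or either control hypoxia library) left no gene of the whole table called, autophagy genes included, since 1 residual degree of freedom was left. The log2 changes then ran from 4.11 to 4.16 for BNIP3, 1.70 to 1.87 for BNIP3L, 0.78 to 1.08 for PINK1 and -1.09 to -0.75 for PIK3R4. In the fit shared by all groups, with each library left out in turn as an alternative added after the data were seen, BNIP3, BNIP3L, PINK1, MAP1LC3B, GABARAP and PIK3R4 stayed called whichever of the 8 libraries was left out. ATG4C and BECN1 lost their call without any 1 of the 4 libraries compared, ATG16L1 and ATG3 lost theirs without control normoxia replicate 2 or either control hypoxia library, and SQSTM1 lost its call without control normoxia replicate 1 or control hypoxia replicate 1. In the pairwise fit with no filter on low values, PINK1, SQSTM1, PIK3R4, ATG16L1, ATG3 and BECN1 lost their call (adjusted p = 0.0713 for PINK1 and 0.0903 for PIK3R4), and with no variance trend ATG3 and BECN1 lost theirs.

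The guide eKD1 was compared with control hypoxia to ask which autophagy genes differ when the enhancer is repressed under low oxygen. None of the 38 genes was called by limma, as against 0.0651% of all genes tested (0.013% higher and 0.052% lower), and 10 of the 38 had an unadjusted p under 0.05, 9 of them higher and 1 lower, against 21.7% of all genes tested in either direction. Of the 38 genes, a fit shared by all 8 libraries called only PIK3R4. That fit called 761 of all 15372 genes tested, beside 10 in the pairwise fit. Both eKD1 libraries were above both controls for 18 genes and below them for 6, against 27.6% and 26% of all genes, and the median log2 difference was 0.11 over the autophagy genes and 0.00 over all genes tested.

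BNIP3 was at 222 and 215 FPKM in eKD1, beside 214 and 208 in control hypoxia, and BNIP3L at 466 and 429 beside 429 and 423. The differences were 0.05 (95% interval -0.08 to 0.19) and 0.07 (-0.09 to 0.23). Neither receptor was called, and their eKD1 libraries were at or just above the controls. PINK1 (17.4 and 15.3 FPKM), FUNDC1 (22.0 and 21.9), MAP1LC3B (11.9 and 12.9) and SQSTM1 (68.8 and 86.4) had differences between -0.07 and 0.16 that did not pass.

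Differences of larger size that did not pass the adjusted test were seen for PIK3R4 at 22.6 and 26.2 FPKM in eKD1 (0.79 ± 0.14, adjusted p = 0.12), ATG2B at 15.9 and 15.2 (0.62 ± 0.13, adjusted p = 0.135) and ULK1 at 27.1 and 24.5 (-0.65 ± 0.10, adjusted p = 0.119). The eKD1 libraries of each of these did not overlap with the controls. PIK3R4 and ATG2B in eKD1 lay within or beside their normoxia values of 30.2 and 23.7 and of 17.8 and 14.2 FPKM. ULK1 lay below all 4 control libraries. GABARAPL1 was at 90.1 and 105 FPKM (0.41 ± 0.10, adjusted p = 0.158) and BECN1 at 54.3 and 57.7 (0.19, adjusted p = 0.233).

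The guide eKD2 gave calls. Of the 38 genes, 4 rose and 2 fell against control hypoxia, where 5.8% of all genes tested were called higher and 3.81% lower (9.61% in either direction). ATG2B, ATG16L1, BNIP3 and BNIP3L rose, and ATG2A and SQSTM1 fell. Both eKD2 libraries were above both controls for 24 genes and below for 5, against 35.8% and 26.4% of all genes, and the median log2 difference was 0.22 over the autophagy genes and 0.05 over all genes tested. With equal FPKM totals 8 were higher and 2 lower. No autophagy gene was called when the variance trend was left out (28 genes of the whole table were), and the 6 calls were also lost, with those of every other gene in the table, without any 1 of the 4 libraries compared (either control hypoxia or either eKD2 library). The log2 changes then ran from 0.95 to 1.17 for ATG2B, 0.35 to 0.40 for BNIP3, -0.87 to -0.77 for ATG2A and -0.77 to -0.62 for SQSTM1.

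BNIP3 rose further, to 279 and 268 FPKM from 214 and 208 in control hypoxia (0.37 ± 0.05, adjusted p = 0.0346), and BNIP3L to 554 and 541 from 429 and 423 (0.36 ± 0.04, adjusted p = 0.0305). Both eKD2 libraries were above every other library of the study for each gene. BNIP3 was at 50.3% and 49.5% of the BNIP3L level, beside 49.9% and 49.0% in control hypoxia. PINK1, by contrast, was at 13.9 and 13.5 FPKM, within the control hypoxia range of 16.2 and 13.0, and FUNDC1 was at 24.2 and 22.6 FPKM (0.20, adjusted p = 0.308).

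The largest change in eKD2 was in ATG2B (GRCh37 chr14:96745532-96829678, minus strand), a lipid transfer protein of the growing phagophore, at 19.8 and 23.3 FPKM beside 8.99 and 10.6 in control hypoxia (1.06 ± 0.14, adjusted p = 0.0375). Its paralogue ATG2A fell to 4.49 and 4.23 FPKM from 8.11 and 8.81 (-0.82 ± 0.12, adjusted p = 0.0432). The groups did not overlap for either gene, and the ATG2B level over the ATG2A level was 4.42 and 5.52 in eKD2, 1.11 and 1.21 in control hypoxia, 2.22 and 1.79 in eKD1 and 3.11 and 2.37 in control normoxia. ATG16L1 was at 33.7 and 32.9 FPKM beside 22.5 and 22.8 (0.54 ± 0.07, adjusted p = 0.0368), inside or next to its normoxia values of 33.1 and 40.04.

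SQSTM1 fell to 51.2 and 47.7 FPKM from 84.8 and 76.4 (-0.69 ± 0.08, adjusted p = 0.0345), and its eKD2 libraries stood beside the normoxia libraries at 48.5 and 54.1. MAP1LC3B was also lower in both eKD2 libraries, at 9.38 and 9.72 FPKM beside 12.5 and 13.6, without passing (-0.41 ± 0.11, adjusted p = 0.0931). The other adaptors were on the other side. TAX1BP1 was at 51.4 and 46.9 FPKM beside 39.2 and 36.7, NBR1 at 29.3 and 31.5 beside 23.6 and 24.96, and OPTN at 16.6 and 16.1 beside 8.50 and 13.3, each higher in both libraries and none called (adjusted p = 0.0763, 0.0984 and 0.194).

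Of the initiation genes in eKD2, ULK1 was at 27.9 and 20.6 FPKM beside 38.5 and 43.5 (-0.75 ± 0.18, adjusted p = 0.0823), while ATG13 was at 75.6 and 90.0 beside 55.0 and 53.3 (0.60 ± 0.11, adjusted p = 0.0528). Their groups did not overlap, on opposite sides of control hypoxia, and neither was called. BECN1 was at 49.6 and 43.5 FPKM (-0.08, adjusted p = 0.586), GABARAPL1 at 88.7 and 93.7 (0.32 ± 0.07, adjusted p = 0.0686) and PIK3R4 at 17.5 and 15.7 (0.26, adjusted p = 0.259). In the fit shared by all groups, ATG13 and ATG5 were called higher and ULK1 and MAP1LC3B lower in eKD2 in addition. That fit called 2601 of all 15372 genes tested in eKD2, beside 1477 in the pairwise fit.

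**Figure D3:**
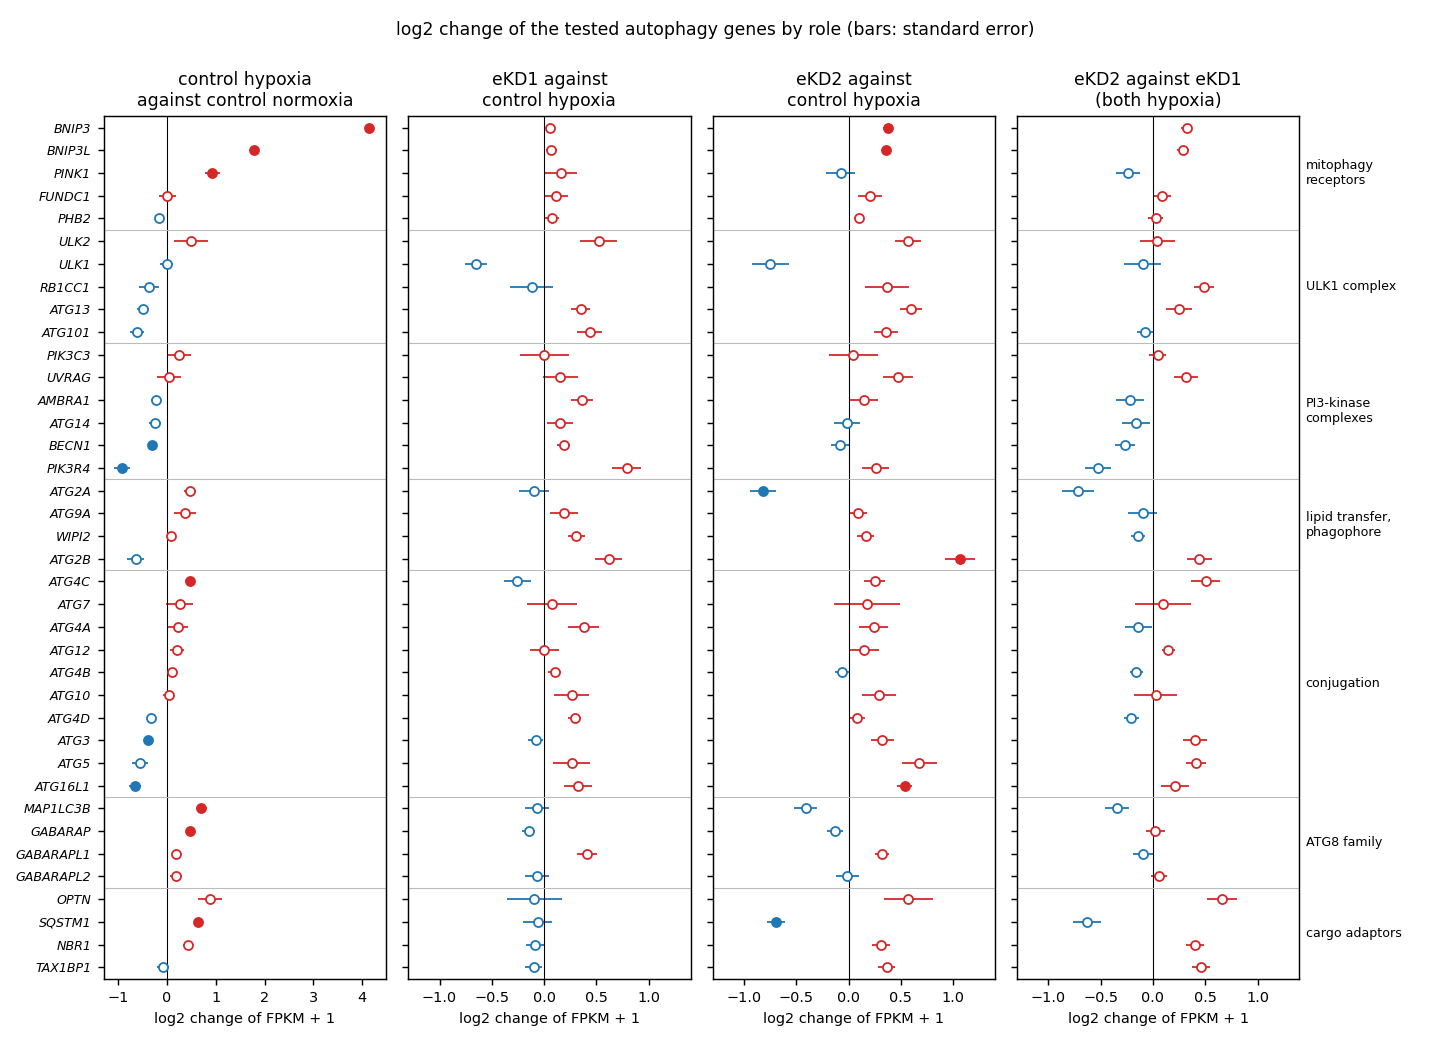
The log2 change of FPKM + 1 (x axis) of the 38 tested genes (rows, grouped by role) in the 4 comparisons (panels). Points are limma estimates with standard errors, filled where the adjusted p is under 0.05, red above 0 and blue below, and the hypoxia panel has a wider axis. Filled points number 11 for hypoxia, 0 for eKD1, 6 for eKD2 and 0 for eKD2 against eKD1.

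Set directly against each other, the 2 guides gave no called autophagy gene by limma, as against 0.403% of all genes tested (0.286% higher and 0.117% lower), and 15 of the 38 had an unadjusted p under 0.05, 10 higher in eKD2 and 5 lower, against 23.6% of all genes tested in either direction. Both eKD2 libraries were above both eKD1 libraries for 15 genes and below them for 13, against 31.9% and 23.3% of all genes. The call pattern of the guides is therefore not shown to differ gene by gene. The nearest to the threshold was BNIP3, higher by 0.32 ± 0.05 in eKD2 (adjusted p = 0.0884), followed by TAX1BP1 at 0.46 ± 0.09 (adjusted p = 0.106). The largest differences were in ATG2A (-0.72 ± 0.15), OPTN (0.66 ± 0.15) and SQSTM1 (-0.63 ± 0.14), whose libraries did not overlap between the guides. BNIP3L (0.29, adjusted p = 0.113), PINK1 (-0.24, adjusted p = 0.305), BECN1 (-0.26, adjusted p = 0.223), MAP1LC3B (-0.34, adjusted p = 0.197), FUNDC1 (0.09, adjusted p = 0.581), GABARAPL1 (-0.09, adjusted p = 0.613) and ULK1 (-0.10, adjusted p = 0.775) were not called. The fit shared by all 8 libraries called BNIP3 higher and ATG2A and SQSTM1 lower in eKD2. Between the guides that fit called 1391 of all 15372 genes tested, beside 62 in the pairwise fit.

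Around these genes, 58 further genes of the pathway were listed, of which 56 passed the filter. In hypoxia 13 of the 56 rose and 8 fell, beside the 16.2% and 16% of all genes tested. Among other mitophagy genes 5 of 15 rose and 3 fell. Those with the largest change were TBK1, the kinase that phosphorylates adaptors, from 16.5 and 18.0 to 7.79 and 7.44 FPKM (-1.08 ± 0.11), NIPSNAP1, from 34.0 and 34.0 to 60.5 and 62.1 (0.83 ± 0.06), TOMM7, an import subunit needed to hold PINK1 on the membrane, from 579 and 566 to 991 and 954 (0.76 ± 0.04) and CALCOCO2, the adaptor NDP52, from 45.3 and 60.0 to 81.7 and 85.7 (0.67 ± 0.16).

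Of 8 fission and fusion genes 3 rose and 1 fell in hypoxia. MIEF2, a fission adaptor, went from 2.22 and 1.96 FPKM to 6.38 and 6.44 (1.26 ± 0.14), FIS1 from 86.0 and 90.7 to 113 and 119 (0.39 ± 0.06), MFF from 125 and 124 to 143 and 142 (0.19 ± 0.05) and OPA1, the inner-membrane fusion GTPase, from 160 and 181 to 132 and 128 (-0.38 ± 0.08). With equal FPKM totals the MFF change was -0.04 and the FIS1 change 0.15, and neither was called. Of 22 tested genes of autophagosome formation, fusion and other adaptors 3 rose and 1 fell: ATG9B, from 5.50 and 3.40 to 15.7 and 14.3 FPKM (1.58 ± 0.24), WDR45B, from 51.0 and 55.8 to 106 and 112 (1.02 ± 0.08), SNAP29, from 29.8 and 31.3 to 41.2 and 41.3 (0.42 ± 0.07) and RAB7A, from 362 and 365 to 260.3 and 288 (-0.41 ± 0.06). The SNAP29 change was 0.19 with equal FPKM totals and was no longer called.

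Of 11 transcription regulators of autophagy genes 2 rose and 3 fell in hypoxia. DDIT3, which encodes the stress factor CHOP, went from 40.9 and 39.3 FPKM to 141 and 136 (1.76 ± 0.06, adjusted p = 0.00505), while HIF1A, whose protein is controlled mainly through its stability, went from 104 and 116 to 33.3 and 39.0 (-1.58 ± 0.11, adjusted p = 0.00809). TFEC, at under 2 FPKM throughout, fell by 0.91 and ZKSCAN3, a repressor of autophagy genes, by 0.76 on the log2 scale. ATF4 rose by 0.32, a change that was 0.077 and not called with equal FPKM totals.

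In eKD1 none of the 56 pathway genes was called by limma, and 11 had an unadjusted p under 0.05, against 21.7% of all genes tested. In eKD2 5 rose and 3 fell. BCL2L13, a mitophagy receptor of the outer membrane, was at 52.6 and 54.7 FPKM beside 19.4 and 24.4 in control hypoxia (1.26 ± 0.13, adjusted p = 0.0308), and RETREG1, the receptor for turnover of the endoplasmic reticulum, at 17.9 and 14.2 beside 7.96 and 7.93 (0.92 ± 0.15, adjusted p = 0.048). TOMM7 fell by 0.56, VDAC1, a channel of the outer membrane, by 0.49 and the prohibitin PHB by 0.48 on the log2 scale. HIF1A rose by 0.73 ± 0.10, OPA1 by 0.38 ± 0.05 and DDIT3 by 0.54 ± 0.05. Between the guides only DDIT3 of the 56 was called, at 198 and 205 FPKM in eKD2 and 55.8 and 49.1 in eKD1 (1.92 ± 0.08, adjusted p = 0.0273). Against control hypoxia the DDIT3 difference was -1.38 in eKD1, which was not called, so eKD1 lay below and eKD2 above the controls.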

How the data were processed

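Poly-A RNA was sequenced as unstranded single-end reads. The authors aligned reads with STAR and made the deposited FPKM values with Cufflinks tools (Cuffnorm), 1 column per library, on GRCh37. Their read counts and tests were not used here. A filter kept genes that reached 1 FPKM in 2 or more libraries, and log2(FPKM + 1) was fitted for each pair of groups alone with limma 3.58.1 in R 4.3.3 (empirical Bayes with a variance trend). P-values were adjusted by Benjamini-Hochberg over all 15372 genes tested, with a threshold of 0.05 for a call. Changes on this scale understate those of low genes. P-values set the difference between groups against the spread between the 2 libraries of a group. That spread was moderated with the trend of the spread over all genes tested. All genes called in a comparison, 9 set genes of the route and up to 4 called genes of each further pathway list with the largest change are named with values, and other genes named in the text were chosen after their values were seen. The member genes and lists were chosen with earlier results of these data known. Exon overlaps were taken from GENCODE lifted to GRCh37, motifs were searched on both strands in RefSeq promoters (GRCh38.p14), and plots were made with matplotlib 3.10.9. Alternatives were another pseudocount, other filters and scalings, a shared fit, a replicate block, no variance trend and leaving out each library.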

Additional observations from a re-analysis of the deposited data

Results flagged for a closer look

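DDIT3 was singled out because its eKD2 and eKD1 libraries differed by the direct test in hypoxia. It was higher in eKD2 by 1.92 ± 0.08 on the log2 scale (limma, adjusted p = 0.0273), with 2 of 2 eKD2 libraries above 2 of 2 eKD1 libraries. Against control hypoxia DDIT3 differed by -1.38 in eKD1, which was not called, and by 0.54 in eKD2. Over the other fits with all libraries of both groups the difference between the guides ran from 1.88 to 1.96. The limma adjusted p ran from 0.000205 to 0.207, and the cause of the difference was not tested.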

How the results depend on the processing

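In hypoxia, the 7 genes higher and 4 lower became 3 and 2 with a replicate block, where PINK1, MAP1LC3B, SQSTM1, ATG4C, ATG16L1, ATG3 and BECN1 lost their call and ATG101 gained one. The count lower was 0 with no filter, 11 with equal FPKM totals, 9 in the shared fit, 2 with no variance trend and 8 with protein-coding genes only. Calls over all genes moved too, from 4946 of 15372 to 2570 with the block and 4310 with no variance trend. They were 3024 of 27155 with no filter, 5532 of 15386 with equal totals (1567 higher) and 5215 of 12248 with protein-coding genes only. In eKD1, the shared fit called 1 gene higher. In eKD2, the 4 higher and 2 lower became 2 and 0 with no filter. They became 0 and 0 with the replicate block and with no variance trend. With equal totals and with protein-coding genes only 8 were higher, and 4 were lower in the shared fit. Over all genes, the 1477 calls became 853 with no filter, 0 with the block and 28 with no variance trend. They became 1896 with equal totals, 2462 with protein-coding genes only and 2601 in the shared fit. Between the guides the shared fit called 1 higher and 2 lower. Without any 1 of the compared libraries, 0 to 0 genes were called in each direction for hypoxia, eKD2 and both other comparisons, as for all genes of the table. In the shared fit without 1 library, added after the data were seen, the count lower in hypoxia was 10 without either eKD1 library and 9 without either eKD2 library. There the eKD2 counts higher and lower were 1 and 0 without either control hypoxia library, 1 and 1 without eKD2 replicate 1 and 2 and 0 without eKD2 replicate 2. Between the guides they were 3 and 1 without either control normoxia library, and 1 gene was lower without eKD1 replicate 1.

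The sign of some uncalled differences turned. With equal totals the hypoxia difference of FUNDC1 was -0.23 and that of GABARAPL1 -0.046, the called MFF change was -0.044, the eKD1 difference of SQSTM1 was 0.0091, and the eKD2 differences of BECN1 and PINK1 were 0.026 and 0.025. Without 1 library, pairwise or shared, the hypoxia difference ran from -0.18 to 0.19 for FUNDC1 and from -0.15 to 0.13 for ULK1, with FUNDC1 at -0.11 and ULK1 at 0.079 without control hypoxia replicate 1. It ran from -0.22 to 0.10 for SQSTM1 in eKD1, with 0.012 without control hypoxia replicate 1, from -0.17 to 0.014 for BECN1 and from -0.22 to 0.075 for PINK1 in eKD2, and from -0.20 to 0.016 for GABARAPL1 and from -0.31 to 0.11 for ULK1 between the guides. The causes were not tested.

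Deviations of same-numbered libraries correlated between -0.057 and 0.126 over the pairs of groups. These values cannot decide whether same-numbered libraries were paired, since each group gives only the difference between its 2 libraries, which noise could dominate. Whether the replicate block is the better fit was not tested. Depth is known only relative to the deepest library, so no counting interval can be given. With 2 libraries a group, a difference that missed the threshold is not shown to be absent.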
